A study of Rattus norvegicus with 4 samples.

Results

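Genes for the mitochondrial respiratory chain and ATP synthase were examined in rat ventral prostate 2 days after treatment with PhIP. They are the nuclear genes whose symbols mark them as parts or assembly factors of complex I (Nduf), complex II (Sdh), complex III (Uqcr), complex IV (Cox) and complex V (Atp5, the ATP synthase). Probe sets with exactly 1 such symbol were taken, and each gene was represented by its probe set with the highest mean signal over the 4 arrays, a choice that does not use the comparison of groups. This gave 86 of the 14217 genes named on the array, of which 42 belong to complex I, 4 to complex II, 7 to complex III, 17 to complex IV and 16 to complex V. Another 7 probe sets that carry several symbols, of which 1 or more fits, were left out.

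The control group was untreated male F344 rats, an inbred laboratory strain, and the PhIP group was male F344 rats given PhIP at 300 mg/kg, all 6 weeks old at treatment. PhIP is a carcinogen that arises in meat cooked at high heat and binds DNA once enzymes have activated it. The samples of 2 rats were pooled for an array, so the 4 rats of a group gave 2 arrays (control 1 and 2, PhIP 1 and 2). A value is a MAS5 signal, the brightness of a probe set on a linear scale, and the 4 arrays share nearly the same trimmed mean. An array of the whole lobe mixes all its cells, so fewer cells of a type and less RNA per cell cannot be told apart, and p-values measure the spread between pools of rats.

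The respiratory chain passes electrons from NADH (through complex I) and succinate (through complex II) by way of ubiquinone, complex III and cytochrome c to oxygen at complex IV. Complexes I, III and IV pump protons across the inner mitochondrial membrane, and ATP synthase makes ATP as the protons flow back. Most subunits are encoded in the nucleus, and a core set is encoded in mitochondrial DNA. In the prostate, secretory epithelium is known to release citrate into the secretion in place of oxidising all of it.

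The groups lay close together across the 5 complexes. The median log2 fold change (PhIP minus control, on the log2(signal + 10) scale) was 0.040 over the 86 genes, with an SD over genes of 0.18, against a median of −0.040 over all 14217 named genes. No member passed the test, limma's moderated test with Benjamini-Hochberg adjustment over the 18625 probe sets above a filter on dim values, at an adjusted p of 0.05. The lowest adjusted p among the 81 members that passed the filter was 0.299 (Cox6a1), and 5 probe sets in the whole table (0.0268%) passed. At an unadjusted p under 0.05, 3 members were higher in PhIP and 3 lower, together 7.41% of the 81, where the same threshold took 13.0% of all probe sets tested (5.36% higher and 7.61% lower). The other 5 members were below the filter and have values only: Ndufa4l2, Cox6a2, Cox6b2, Cox7b2 and Cox8b.

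The size of a difference that these arrays allow can be given for most members. For 68 of the 81 tested (84.0%), the 95% confidence interval of the log2 fold change, without adjustment for the number of genes, lay within 0.5 of 0 on either side, which was so for 31.3% of all probe sets tested. The log2 fold change itself lay within 0.2 of 0 for 70 members (86.4%) and for 54.9% of all probe sets. The median standard error was 0.094 over the members and 0.16 over all named genes that passed the filter. The tested members were also brighter: their mean log2(signal + 10) on an array was 9.67 to 9.75, against 7.13 to 7.20 for those named genes. Because the fit lets the variance follow the signal, these percentages do not compare genes of like signal. How far signal level accounts for the gap between members and all probe sets was not tested. The 2 PhIP arrays lay above both control arrays for 19 members (19.8% of all probe sets did so) and below both for 10 (26.0% of all probe sets), in all 35.8% of the 81 against 45.8% of all probe sets.

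The 2 control arrays differed from each other by more than the 2 PhIP arrays did. Over the 86 genes, the median absolute log2 difference was 0.14 between the control arrays and 0.068 between the PhIP arrays, and the median absolute log2 fold change was 0.079. The control arrays were also farther apart over all 14217 named genes, where these values were 0.21, 0.15 and 0.18. A log2 fold change is a difference between means of 2 arrays, which varies less than a difference between single arrays. It is thus not a like quantity to the other values. Averaged over the 86 genes, the log2 value was 9.35 in control 1, 9.38 in control 2, 9.40 in PhIP 1 and 9.35 in PhIP 2. PhIP 1 was thus the highest, and PhIP 2 was level with control 1. Over the 81 tested members the averages were 9.67 in control 1, 9.71 in control 2, 9.75 in PhIP 1 and 9.69 in PhIP 2. There PhIP 2 lay between the control arrays.

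**Figure D1:**
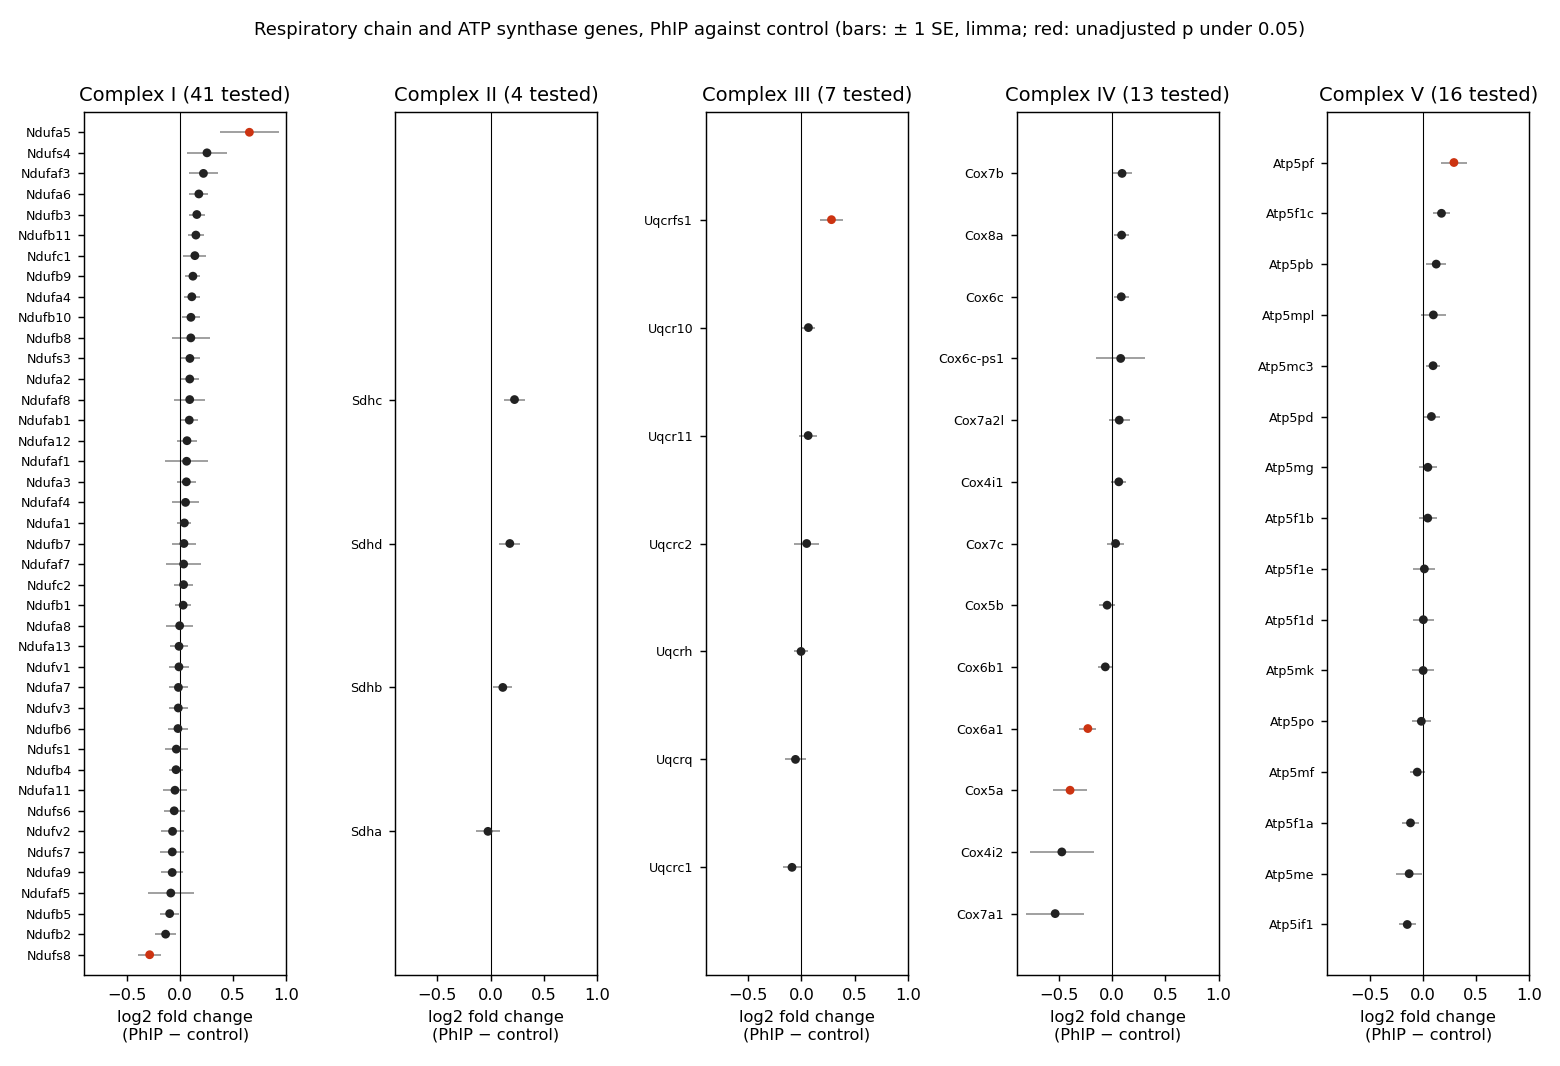
Log2 fold change (x axis, PhIP minus control on the log2(signal + 10) scale) of the 81 members that passed the filter, by complex, with bars of 1 SE from limma on 2 arrays a group and red points for an unadjusted p under 0.05. Most points lie within 0.2 of 0, and 6 are red: Ndufa5, Uqcrfs1 and Atp5pf on the higher side and Ndufs8, Cox6a1 and Cox5a on the lower.

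The size of the members' median depended on how the arrays were put on one scale, and it stayed above 0 under the 4 other scalings tried. After median centring, which moved the median of all genes from −0.040 to 0.096, the members' median was 0.18, and 25 members were higher and 0 lower at an unadjusted p under 0.05 (13.5% and 3.46% of all probe sets). After scaling to the added hybridization controls, the median of all genes was 0.19, the members' median was 0.27, and 34 members were higher and 0 lower (20.8% and 1.92% of all probe sets). With quantile normalization or cyclic loess the members' median was 0.010 and 0.0027. Relative to the median of all genes, the members stood at 0.080 as deposited. Median centring and scaling to hybridization controls shift all genes of an array by the same amount, so they cannot change this distance. It was 0.024 after quantile normalization and 0.013 after cyclic loess. No member passed the adjusted threshold under any of these 4 scalings (lowest adjusted p = 0.111, limma, after scaling to hybridization controls).

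**Figure D2:**
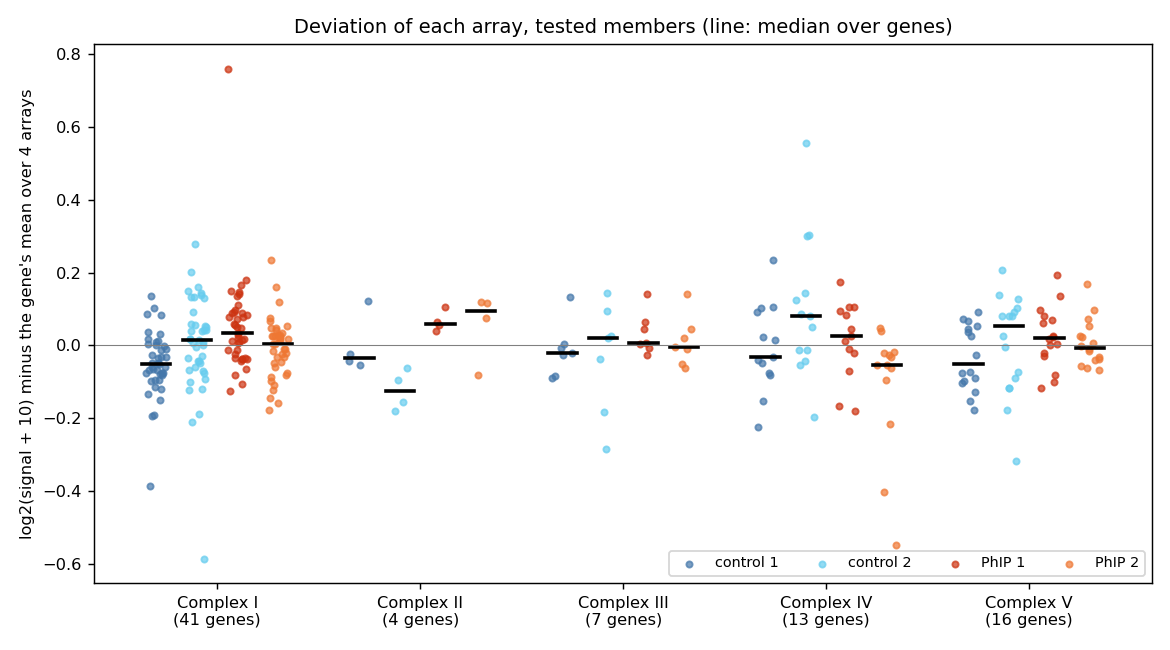
Each array's log2(signal + 10) minus the gene's mean over the 4 arrays (y axis) for the 81 tested members, grouped by complex, with a line at the median of each array. The 4 arrays overlap in complexes I, III, IV and V, while in complex II control 2 is the lowest array for each of the 4 genes and its points lie below all those of control 1 and PhIP 1.

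The promoters of these genes are known for sites of NRF1, of GABP (an ETS factor also called NRF2) and of YY1. RefSeq promoter windows of assembly GRCr8, 250 bases before to 50 after the start, were at hand for 78 of the 86 members. On either strand, the letters GCGCATGC of the NRF1 consensus were in 9 windows (11.5%, against 3.22% of the windows of 18999 protein-coding genes), ACTTCCGG of the ETS site in 8 (10.3% against 4.99%) and AAGATGGCG of the YY1 site in 11 (14.1% against 2.29%). The Sp1 letters GGGGCGGGG were in 4 (5.13% against 13.3%). A window counted once for a motif, also where motifs overlap. The 250 bases before the start are given for the 5 members with an unadjusted p under 0.05 that the table holds and for Ndufa6 and Uqcrc1, the 2 members whose windows hold both the NRF1 and the YY1 letters. They lie in GRCr8 at chr17:34186352-34186601 (plus strand) for Uqcrfs1, chr4:53971236-53971485 (minus strand) for Ndufa5, chr11:37375102-37375351 (minus strand) for Atp5pf, chr1:210573699-210573948 (minus strand) for Ndufs8, chr8:66818034-66818283 (plus strand) for Cox5a, chr7:115750318-115750567 (minus strand) for Ndufa6 and chr8:118467973-118468222 (plus strand) for Uqcrc1. The starts of Uqcrfs1, Atp5pf and Ndufs8 in this table lie inside the annotated span of the gene, so these stretches overlap it. They are written 5′ to 3′ on the gene's strand, ending at the base before the start, with the motif letters in capitals.
Uqcrfs1: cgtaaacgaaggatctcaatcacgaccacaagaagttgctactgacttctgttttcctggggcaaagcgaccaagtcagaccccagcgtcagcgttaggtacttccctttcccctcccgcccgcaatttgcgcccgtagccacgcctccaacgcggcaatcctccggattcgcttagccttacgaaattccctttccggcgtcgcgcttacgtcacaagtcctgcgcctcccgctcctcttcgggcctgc
Ndufa5: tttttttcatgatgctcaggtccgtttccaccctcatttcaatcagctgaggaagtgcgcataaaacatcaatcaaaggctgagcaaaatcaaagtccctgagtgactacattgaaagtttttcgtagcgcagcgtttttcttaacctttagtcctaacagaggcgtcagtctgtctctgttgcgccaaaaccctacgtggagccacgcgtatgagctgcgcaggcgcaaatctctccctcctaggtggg
Atp5pf: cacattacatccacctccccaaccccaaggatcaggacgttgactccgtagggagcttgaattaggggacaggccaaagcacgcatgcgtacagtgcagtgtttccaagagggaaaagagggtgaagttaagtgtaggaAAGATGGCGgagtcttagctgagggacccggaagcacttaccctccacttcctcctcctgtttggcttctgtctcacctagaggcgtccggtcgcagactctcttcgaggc
Ndufs8: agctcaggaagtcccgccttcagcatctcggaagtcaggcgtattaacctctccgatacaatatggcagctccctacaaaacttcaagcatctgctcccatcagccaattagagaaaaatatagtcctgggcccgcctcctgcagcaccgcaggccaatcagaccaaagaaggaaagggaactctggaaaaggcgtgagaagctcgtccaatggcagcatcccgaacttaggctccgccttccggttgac
Cox5a: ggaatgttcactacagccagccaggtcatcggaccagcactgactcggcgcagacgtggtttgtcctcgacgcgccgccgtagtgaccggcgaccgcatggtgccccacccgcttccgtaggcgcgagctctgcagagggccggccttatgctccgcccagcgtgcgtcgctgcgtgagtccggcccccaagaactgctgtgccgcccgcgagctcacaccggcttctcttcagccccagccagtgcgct
Ndufa6: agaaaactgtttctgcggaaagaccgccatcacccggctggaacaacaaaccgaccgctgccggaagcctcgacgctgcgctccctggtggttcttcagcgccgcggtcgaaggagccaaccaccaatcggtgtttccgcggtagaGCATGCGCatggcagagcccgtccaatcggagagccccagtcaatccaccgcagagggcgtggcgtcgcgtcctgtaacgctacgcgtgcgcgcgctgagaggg
Uqcrc1: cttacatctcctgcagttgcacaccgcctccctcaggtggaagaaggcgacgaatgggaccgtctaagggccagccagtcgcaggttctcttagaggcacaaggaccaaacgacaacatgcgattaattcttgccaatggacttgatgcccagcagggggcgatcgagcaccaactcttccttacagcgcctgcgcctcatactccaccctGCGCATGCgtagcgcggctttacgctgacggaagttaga
The YY1 letters begin 111 bases before the start in Atp5pf, and the NRF1 letters 104 bases before it in Ndufa6 and 39 bases in Uqcrc1, and the YY1 letters of both lie outside the printed bases. The printed stretches of Uqcrfs1, Ndufa5, Ndufs8 and Cox5a hold none of the 4 motifs. Of the 2 genes with both, Ndufa6 stood at 0.18 ± 0.089 and Uqcrc1 at −0.089 ± 0.087.

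Complex I, the NADH dehydrogenase, is the largest of the complexes and is built from a peripheral arm that binds NADH and passes electrons to ubiquinone, and a membrane arm that pumps protons. Its 42 genes had a median log2 fold change of 0.037, between −0.28 and 0.65, with 24 above 0 and 18 below. Of the 41 tested, 1 was higher and 1 lower at an unadjusted p under 0.05 (together 4.88%, against 13.0% of all probe sets tested). Both belong to the module of the peripheral arm that holds the quinone-binding site, and they went in opposite directions. Ndufa5, an accessory subunit of that module, gave signals of 419.7 and 289.6 on the control arrays against 752.8 and 407.5 on the PhIP arrays. PhIP 1 stood far above the other arrays, while PhIP 2 was below control 1, so the groups overlapped. Its log2 fold change of 0.65 ± 0.28 (SE, n = 2 arrays a group; limma unadjusted p = 0.0476, adjusted p = 0.380) was the highest of all members. Ndufs8, an iron-sulphur subunit of the same module, gave signals of 464.8 and 505.0 on the control arrays against 406.1 and 386.3 on the PhIP arrays, with no overlap (log2 fold change −0.28 ± 0.11, unadjusted p = 0.0291, adjusted p = 0.335). After median centring Ndufs8 stood at −0.15, and after scaling to hybridization controls at −0.056. The other genes of this module, Ndufs3 and Ndufs7, stood at 0.094 ± 0.094 and −0.071 ± 0.11.

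The 8 genes of the NADH-binding module, which holds the flavin and the first iron-sulphur clusters, had a median of −0.012. Ndufv1, which encodes the flavin-carrying subunit, gave signals of 576.3 and 607.0 on the control arrays against 574.7 and 601.2 on the PhIP arrays, the same range in both groups. Ndufs1, the largest iron-sulphur subunit, had 304.5 and 297.6 on the control arrays against 294.8 and 292.9 on the PhIP arrays (−0.034 ± 0.11), a small gap without overlap. Ndufs4, a late-added accessory subunit, had the highest value of this module (0.25 ± 0.18, adjusted p = 0.589), with control 1 at 186.6 and the other arrays between 250.7 and 292.4. In the distal membrane arm, the 11 Ndufb genes had a median of 0.038, between −0.13 and 0.16. Ndufb3 gave signals of 1731.4 and 1698.1 on the control arrays against 1957.9 and 1874.7 on the PhIP arrays (0.16 ± 0.073, adjusted p = 0.411), with no overlap. Ndufb4 gave signals of 3012.9 and 3101.0 on the control arrays against 3043.2 and 2918.8 on the PhIP arrays (−0.036 ± 0.065), with overlap.

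The other 12 structural genes with a complex I symbol had a median of 0.039. Ndufa6, an accessory subunit of the LYR protein family, gave signals of 1105.7 and 1155.1 on the control arrays against 1351.9 and 1212.1 on the PhIP arrays (0.18 ± 0.089, adjusted p = 0.446). Both PhIP arrays were above both control arrays, by a margin of PhIP 2 over control 2 smaller than the distance between the PhIP arrays. Ndufa1 had 2976.3 and 2870.9 on the control arrays against 3073.6 and 2948.7 on the PhIP arrays (0.042 ± 0.066). Assembly factors, which help build the complex and are not part of it, had a median of 0.058 over 6 genes (Ndufaf1, Ndufaf3, Ndufaf4, Ndufaf5, Ndufaf7 and Ndufaf8), with a highest value of 0.22 ± 0.13 for Ndufaf3 (adjusted p = 0.517).

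Complex II, succinate dehydrogenase, belongs to both the citrate cycle and the respiratory chain, and all of its subunits are nuclear. Its 4 genes had the highest median of the complexes (0.15), and 3 of the 4 had no overlap of the groups, all higher in PhIP (19.8% of all probe sets tested). The membrane anchors came first. Sdhc gave signals of 610.0 and 553.0 on the control arrays against 676.5 and 683.6 on the PhIP arrays (0.22 ± 0.098, unadjusted p = 0.0536, adjusted p = 0.393). Sdhd had 646.9 and 590.2 on the control arrays against 688.2 and 714.5 on the PhIP arrays (0.18 ± 0.097, adjusted p = 0.481), but its other probe set stood at 0.013 ± 0.14. The iron-sulphur subunit gene Sdhb had 654.7 and 650.8 on the control arrays against 698.6 and 716.0 on the PhIP arrays (0.11 ± 0.090, adjusted p = 0.619). The flavoprotein gene Sdha had 613.3 and 525.9 on the control arrays against 585.5 and 531.5 on the PhIP arrays (−0.025 ± 0.11, adjusted p = 0.940), so the PhIP arrays lay between the control arrays, and its sign turned after median centring (0.11) and after scaling to hybridization controls (0.20). In all 4 genes control 2 was lower than control 1. The difference of complex II from the other complexes was not tested.

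Complex III, which passes electrons from ubiquinol to cytochrome c, had a median of 0.049 over 7 genes. Uqcrfs1, which encodes the Rieske iron-sulphur protein, its catalytic electron carrier, gave signals of 1168.2 and 953.6 on the control arrays against 1285.7 and 1285.4 on the PhIP arrays. Both PhIP arrays were higher than both control arrays, and the control arrays were farther from each other (0.29 on the log2 scale) than the PhIP arrays (0.0003). The log2 fold change was 0.28 ± 0.11 (unadjusted p = 0.0323, adjusted p = 0.343). The core subunit genes stood at −0.089 ± 0.087 (Uqcrc1: 968.3, 1040.4, 955.5 and 930.7) and 0.049 ± 0.11 (Uqcrc2), and the sign of Uqcrc1 turned after median centring (0.047) and after scaling to hybridization controls (0.14). The small subunit gene Uqcr10 gave signals of 2796.2 and 2774.5 on the control arrays against 2939.9 and 2889.8 on the PhIP arrays (0.065 ± 0.064). Uqcrh, the hinge protein, had 2091.9 and 2159.5 on the control arrays against 2131.2 and 2106.9 on the PhIP arrays (−0.0043 ± 0.069), and Uqcr11 stood at 0.063 ± 0.081. Averaging all probe sets that a gene has gave complex III a median of −0.0043.

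Complex IV, cytochrome c oxidase, carries its catalytic centres in subunits encoded by mitochondrial DNA, and the nuclear subunits surround them. The 9 common nuclear subunits had a median of 0.031, and 2 of them (22.2%) had an unadjusted p under 0.05, both lower in PhIP. Over all probe sets tested, 13.0% passed that threshold and 7.61% were lower. Cox6a1, the isoform of subunit VIa in most tissues, gave signals of 1585.3 and 1606.7 on the control arrays against 1310.7 and 1410.5 on the PhIP arrays. Its arrays did not overlap, and its log2 fold change of −0.23 ± 0.079 (unadjusted p = 0.0209, adjusted p = 0.299) had the lowest p of all members. Cox5a, a core-binding subunit, had 90.4 and 106.2 on the control arrays against 73.1 and 71.0 on the PhIP arrays (−0.40 ± 0.16, unadjusted p = 0.0409, adjusted p = 0.365), again with no overlap. After median centring Cox5a stood at −0.26, and after scaling to hybridization controls at −0.17. The other 7 common subunits lay between −0.066 (Cox6b1) and 0.092 (Cox7b). Cox4i1 gave signals of 3251.6 and 3335.8 on the control arrays against 3590.5 and 3289.7 on the PhIP arrays (0.061 ± 0.070), with overlap. Cox7b had 3712.3 and 3012.9 on the control arrays against 3561.6 and 3569.1 on the PhIP arrays (0.092 ± 0.098), so that its sign rested on control 2: without control 2 the value was −0.058. Cox8a stood at 0.088 ± 0.073, and Cox7a2l, whose product joins complexes III and IV into supercomplexes, at 0.066 ± 0.098.

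**Figure D3:**
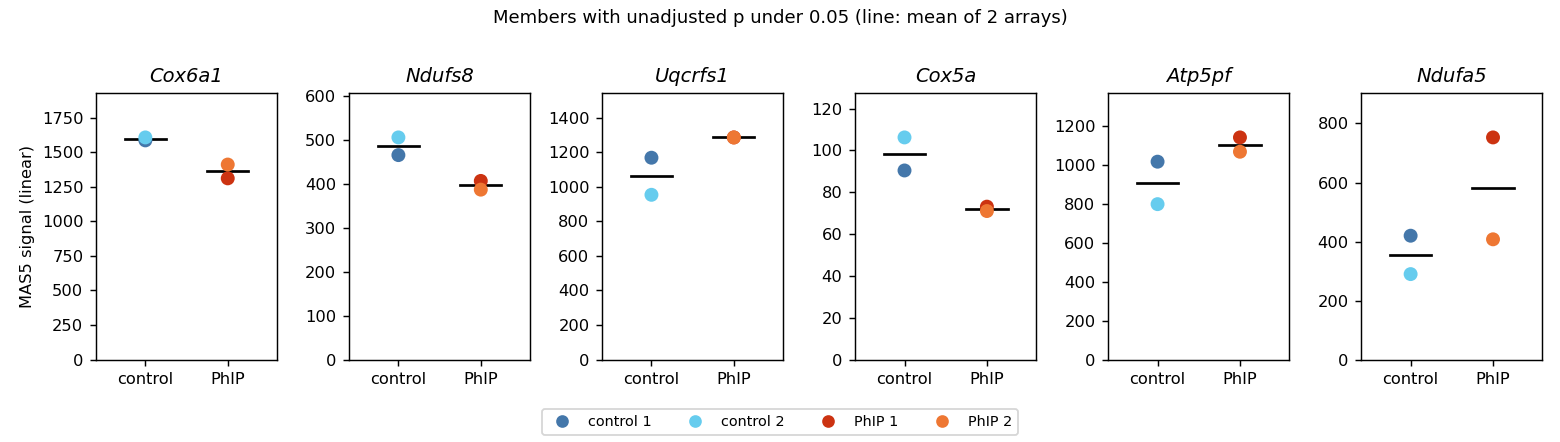
MAS5 signal (linear, y axis from 0) on each of the 4 arrays for the 6 members with an unadjusted p under 0.05, with a line at each group's mean. Cox6a1, Ndufs8 and Cox5a are lower and Uqcrfs1 and Atp5pf higher on both PhIP arrays, while the Ndufa5 value of PhIP 2 (407.5) is below that of control 1 (419.7).

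Some complex IV subunits exist as isoforms that replace the common one in certain tissues, such as Cox6a2, Cox7a1 and Cox8b in heart and skeletal muscle, Cox4i2 in lung, and Cox6b2 and Cox7b2 in testis. All 6 of these gave signals of at most 29.1 on every array. Cox6a2 had 4.7 and 0.9 on the control arrays against 1.7 and 4.7 on the PhIP arrays, Cox8b had 10.7 and 1.4 in control and 0.7 on both PhIP arrays, and Cox7b2 ranged from 0.4 to 5.7 over the arrays. These 3 genes and Cox6b2 (13.2, 7.8, 1.1 and 8.0) were below the filter, where a fold change depends on the added constant. Of the 2 that were tested, Cox7a1 had 24.3 and 25.9 on the control arrays against 19.4 and 9.9 on the PhIP arrays, with no overlap (−0.54 ± 0.27, adjusted p = 0.452, the lowest value of all members). Cox4i2 had 15.1 and 29.1 on the control arrays against 15.3 and 10.1 on the PhIP arrays (−0.47 ± 0.30, adjusted p = 0.539), with overlap. Of 15 listed skeletal muscle markers 14 were measured, with a summed signal of 2532.9 to 3205.0 in control and 1741.3 to 1890.5 in PhIP, and none was at 0 on all arrays. Control 2 stood apart on many of these markers: Myl1 had 5.2 on control 1 and 305.6 on control 2, and 4.5 and 9.1 on the PhIP arrays. Myh4 had 0.5 and 164.6 on the control arrays against 6.6 and 3.8 on the PhIP arrays. Averaged over the 14 genes, control 2 was above control 1 by 1.40 on the log2 scale. Acta1, which with Myh1 carries most of the sum, was more even in control (658.2 and 691.1, against 372.9 and 282.1 in PhIP). Myh1 was the brightest marker on every array (1566.1 and 1348.5 in control, 1331.1 and 1274.4 in PhIP), while Myh2 was at most 19.0. Myh1 was thus a large part of each sum, but the sum did not follow it. From control 1 to control 2 the sum rose from 2532.9 to 3205.0, while Myh1 fell from 1566.1 to 1348.5. The part of such tissue in the values of the isoforms was not tested. The median of complex IV was 0.031 over all 17 genes and −0.049 over the 15 that encode subunits, which leaves out Cox7a2l and the pseudogene Cox6c-ps1 (0.079 ± 0.23), whose signal cannot be separated with certainty from that of Cox6c. The value over 17 genes was −0.017 with quantile normalization and with cyclic loess, and between −0.091 and −0.044 whichever array was left out.

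**Figure D4:**
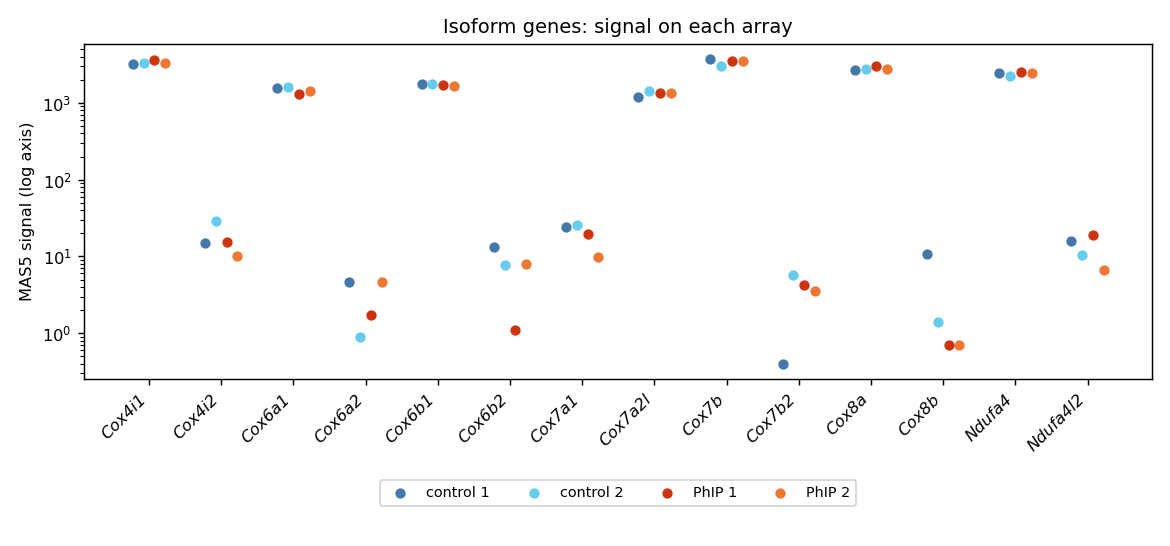
MAS5 signal (log axis) on each array for 12 complex IV genes of the isoform list and for Ndufa4 and its paralogue Ndufa4l2. The common genes sit between 1194.4 and 3712.3, and the tissue isoforms and Ndufa4l2 at 29.1 or below; levels of different probe sets are not comparable as amounts of RNA.

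Ndufa4 carries a complex I symbol but its product is known as a subunit of complex IV. Its signals were 2426.8 and 2214.8 on the control arrays against 2566.6 and 2448.1 on the PhIP arrays (0.11 ± 0.076, adjusted p = 0.565), with both PhIP arrays above both control arrays. Its paralogue Ndufa4l2, a hypoxia-inducible gene, had 15.9 and 10.4 on the control arrays against 18.9 and 6.6 on the PhIP arrays and was below the filter.

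Complex V, the ATP synthase, consists of the F1 head that makes ATP, the membrane part with the turning ring of c subunits, and a peripheral stalk that holds them together. Its 16 genes had a median of 0.028, between −0.15 and 0.29. The median was −0.017 with quantile normalization, −0.019 with cyclic loess, −0.059 without control 1 and −0.0035 without PhIP 1. In the F1 head, Atp5f1a (the alpha subunit) gave signals of 1481.6 and 1413.5 on the control arrays against 1279.8 and 1387.4 on the PhIP arrays (−0.12 ± 0.083), with a sign that turned after median centring (0.018) and after scaling to hybridization controls (0.11). Atp5f1b, the catalytic beta subunit, had 2778.5 and 2435.6 on the control arrays against 2588.6 and 2779.7 on the PhIP arrays (0.044 ± 0.085). Atp5f1c, the gamma subunit of the central stalk, had 1575.9 and 1603.7 on the control arrays against 1694.7 and 1898.5 on the PhIP arrays, with no overlap (0.17 ± 0.083, adjusted p = 0.425). Of the c ring genes 1 was a member, Atp5mc3 (2823.5, 2991.6, 3152.2 and 3054.0; 0.094 ± 0.067), also without overlap.

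Peripheral stalk genes had a median of 0.10 over 4 genes. Atp5pf, coupling factor 6, gave signals of 1018.6 and 800.0 on the control arrays against 1143.5 and 1069.8 on the PhIP arrays, with no overlap and the lowest value on control 2 (0.29 ± 0.12, unadjusted p = 0.0468, adjusted p = 0.378). The other 3 stood at 0.12 ± 0.096 (Atp5pb), 0.078 ± 0.080 (Atp5pd) and −0.016 ± 0.086 (Atp5po). The 5 small membrane subunit genes had a median of 0.0006, with Atp5mf at 2620.3 and 2825.1 on the control arrays against 2670.9 and 2568.6 on the PhIP arrays (−0.055 ± 0.072). Atp5if1 encodes the inhibitor that stops the enzyme from running backwards and splitting ATP. It gave signals of 1143.3 and 1153.2 on the control arrays against 1029.0 and 1040.6 on the PhIP arrays, the arrays of each group lying close together and the groups apart (−0.15 ± 0.080, adjusted p = 0.479). Its other probe sets stood at −0.18 ± 0.24 and −0.35 ± 0.34, and after scaling to hybridization controls the value was 0.079.

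The count of calls rested on the control arrays. When control 1 was left out, 6 of the 81 members (7.41%) passed an adjusted p of 0.05, as did 12.5% of all probe sets. They were Uqcrfs1 (0.43, adjusted p = 0.00398), Atp5pf (0.46, adjusted p = 0.00402), Cox7b (0.24, adjusted p = 0.0247), Ndufa5 (0.91, adjusted p = 0.0292) and Sdhc (0.29, adjusted p = 0.0464) on the higher side and Ndufs8 (−0.34, adjusted p = 0.0410) on the lower. This leaves 1 control array, which is then assumed to vary like the PhIP arrays, since the spread comes from the 2 PhIP arrays alone (1285.7 and 1285.4 for Uqcrfs1). For the 5 genes on the higher side, control 2 was the lowest of the 4 arrays. None of the 81 passed without control 2, without PhIP 1 or without PhIP 2.

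Among related genes, the mitochondrially encoded COX2, a catalytic subunit of complex IV, gave signals of 8811.3 and 7114.7 on the control arrays against 9476.1 and 9488.3 on the PhIP arrays (0.26 ± 0.093, unadjusted p = 0.0240, adjusted p = 0.311). COX1, which encodes another catalytic subunit, had 8623.4 and 8955.3 on the control arrays against 8390.1 and 8518.9 on the PhIP arrays (−0.056 ± 0.051, adjusted p = 0.664). Both had no overlap, in opposite directions, and control 2 was again the lowest for COX2. Complex IV assembly factors had a median of 0.087 over 17 genes, 1 of them higher at an unadjusted p under 0.05: Cox14, with 408.0 and 475.4 on the control arrays against 625.7 and 546.0 on the PhIP arrays (0.40 ± 0.12, adjusted p = 0.251). Over all probe sets tested, 5.36% were higher and 7.61% lower at that threshold. Of 4 ATP synthase assembly genes 1 was lower at that threshold, Tmem70 (32.8 and 26.6 in control, 14.9 and 14.1 in PhIP; −0.69 ± 0.23, adjusted p = 0.295). Other complex I factors (8 genes, median 0.060), complex II factors (4 genes, −0.051) and complex III partners and factors (7 genes, 0.086, with cytochrome c1 gene Cyc1 at −0.071 ± 0.094) had none. Of the cytochrome c list only Hccs, the haem lyase, was measured (−0.17 ± 0.14).

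In the lists of genes that feed the chain or regulate it, none passed the adjusted threshold. At an unadjusted p under 0.05, 5.36% of all probe sets tested were higher and 7.61% lower. Citrate cycle and pyruvate dehydrogenase genes had a median of 0.026 over 14 genes, with Pdhx higher (0.28 ± 0.11, adjusted p = 0.348) and Ogdh lower (−0.20 ± 0.082, adjusted p = 0.374) at an unadjusted p under 0.05. Citrate synthase, Cs, gave signals of 897.5 and 745.4 on the control arrays against 888.1 and 845.6 on the PhIP arrays (0.082 ± 0.11). Coenzyme Q synthesis genes had a median of 0.021 over 12 genes, 1 of them lower (Coq6, −0.29 ± 0.12, adjusted p = 0.374). Carriers and channels had a median of 0.091 over 13 genes, and Ucp2, a mitochondrial carrier of the uncoupling protein family, was higher (833.2 and 787.8 in control, 1018.6 and 1052.1 in PhIP; 0.35 ± 0.087, unadjusted p = 0.00413, adjusted p = 0.179). Of 18 genes for mitochondrial biogenesis and mitochondrial DNA expression, 0 were higher or lower at that threshold (median −0.023). Among them were the transcription factor genes Nrf1 (37.4, 33.7, 27.4 and 28.1; −0.27 ± 0.20), Gabpa (155.5, 135.6, 125.0 and 145.2; −0.10 ± 0.15), Yy1 (0.084 ± 0.096) and Tfam (169.6, 164.9, 166.8 and 172.4; 0.019 ± 0.13) and the coactivator gene Ppargc1a (19.5, 16.0, 17.1 and 26.3; 0.18 ± 0.26). Glycolysis genes had a median of 0.0037 over 14 genes, with 0 at that threshold, Hk2 among them (81.8 and 38.9 in control, 80.9 and 113.3 in PhIP; 0.66 ± 0.30, adjusted p = 0.410).

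The medians of the cell type marker lists ran from −1.02 (erythroid, 3 genes) to 0.71 (proliferating cells, 7 genes). Luminal epithelial markers were measured for 10 of 12 listed genes, with a summed signal from 19942.3 to 21286.7 on control arrays and from 22655.9 to 22854.5 on PhIP arrays (median log2 fold change 0.15). In that list 5 genes were higher and 1 lower at an unadjusted p under 0.05 (5.36% and 7.61% of all probe sets tested). Krt19 stood at 0.63 ± 0.12, Cldn4 at −0.30 ± 0.098 and the secretory protein gene Pbsn at −0.059 ± 0.076. The number measured, the sums and the median for the smooth muscle markers were 12 of 12, 10110.0 to 10116.6, and 7246.9 to 7397.2 (median −0.70), and for the fibroblast markers 10 of 10, 10003.5 to 12556.3, and 7562.1 to 7697.4 (median −0.53). At that threshold 9 smooth muscle and 8 fibroblast markers were lower, and 0 of either list were higher. The other medians were −0.95 (skeletal muscle), −0.76 (adipocyte), −0.34 (basal epithelium), −0.31 (endothelium), −0.090 (brown adipocyte) and 0.065 (leukocyte). The brown adipocyte list is not separate from the members, since it includes Cox7a1 and Cox8b, and its Ucp1 and Cox8b were below the filter. The part of cell composition in the members' values was not tested.

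**Figure D5:**
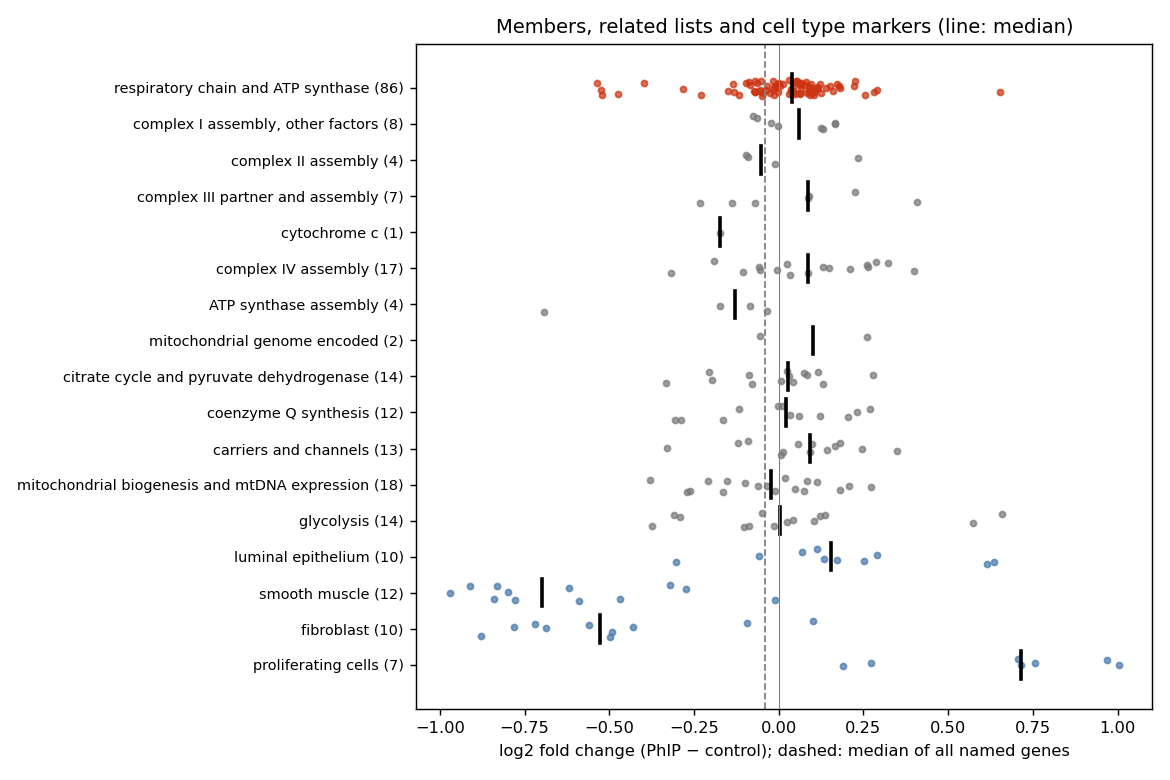
Log2 fold change (PhIP minus control) of the 86 members, of the related mitochondrial and glycolysis lists and of 4 cell type marker lists, 1 point a gene, with a line at each list's median and a dashed line at the median of all named genes (−0.040). The members' median is 0.040, that of the smooth muscle markers −0.70 and that of the proliferation markers 0.71.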

How the data were processed

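MAS5 signals, intensities on a linear scale, were deposited by the authors for 4 Affymetrix arrays; MAS5 is named without a version, per the submitters' processing notes. Per the labels, each labelling reaction took 5 µg of total RNA. The sources do not state detection calls or a scaling target. Precision is limited by having 4 arrays. Of 31099 probe sets, 57 manufacturer controls were left out. Symbols came from the platform annotation (20832 probe sets with 1 symbol, 436 with several, 9831 with none), of which 20764 matched GRCr8 by Entrez identifier.

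Signals were analysed as log2(signal + 10), which understates changes of dim genes. Probe sets above the 40th percentile of the mean log2 value were tested (18625; signal plus constant of at least 24.3) with limma 3.58.1 in R 4.3.3 (lmFit, eBayes with intensity trend, 2 residual and 5.67 prior degrees of freedom), two-sided, adjusted over all of them. The fit was tested on simulated data. Named genes were, in complexes I, III, IV and V, the 4 with the largest moderated statistic and the 2 brightest, all Sdh genes, the extremes, the isoform list and up to 3 genes a related list; genes outside this rule were added to fill in a module after their values were seen. Members and lists were chosen with earlier results of these data known. Figures used Python 3.11.15 and matplotlib 3.10.9. Alternatives were other constants (2, 20), no filter or the 60th percentile, 4 other scalings, eBayes without trend or robust, a block for the replicate number, each array left out in turn, the mean of probe sets, and subunits alone.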

Additional observations from a re-analysis of the deposited data

How the results depend on the processing

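The members' count of 0 calls at limma's adjusted p of 0.05 held under the alternatives tried, except that leaving out arrays gave 0 to 6 (6 without control 1). With an array left out, its group has 1 array, assumed to vary like the other group, whose pair alone gives the spread. At an unadjusted p under 0.05 (3 higher, 3 lower), leaving out arrays gave 0 to 13 higher and 0 to 9 lower; the other counts were 0 higher with quantile normalization, cyclic loess or eBayes without trend (1 lower there), 25 and 0 after median centring, and 34 and 0 after scaling to hybridization controls.

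Medians by complex (I to V) became 0.17, 0.28, 0.19, 0.17 and 0.16 after median centring and 0.26, 0.37, 0.28, 0.26 and 0.26 after scaling to hybridization controls, where the median of all members was 0.18 and 0.27. Quantile normalization gave 0.010 over all members, 0.010 (III), −0.017 (IV) and −0.017 (V); cyclic loess gave 0.0027, 0.0096, −0.017 and −0.019. The mean of probe sets gave −0.0043 for complex III, and subunits alone −0.049 for complex IV. Leaving out arrays gave 0.0006 to 0.062 over all members, 0.010 to 0.060 (III), −0.091 to −0.044 (IV, below 0 each time, against 0.031 on all 4 arrays) and −0.059 to 0.046 (V).

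Related lists moved as a whole. After median centring and after scaling to hybridization controls, their medians were 0.20 and 0.29 (complex I factors), 0.085 and 0.18 (complex II factors), 0.22 and 0.31 (complex III), −0.038 and 0.054 (Hccs), 0.22 and 0.32 (complex IV factors), 0.0078 and 0.099 (ATP synthase factors), 0.24 and 0.33 (mitochondrially encoded), 0.16 and 0.25 (citrate cycle), 0.16 and 0.25 (coenzyme Q), 0.23 and 0.32 (carriers), 0.11 and 0.21 (biogenesis), 0.14 and 0.23 (glycolysis). Carriers stood at 0.050 with quantile normalization and 0.058 with cyclic loess; the mean of probe sets gave −0.54 for Hccs and 0.035 for complex IV factors. Leaving out arrays gave 0.012 to 0.089 (complex I factors), −0.056 to −0.0043 (complex II factors), −0.24 to −0.028 (ATP synthase factors), −0.050 to 0.074 (citrate cycle), −0.032 to 0.062 (coenzyme Q), 0.026 to 0.13 (carriers) and −0.14 to 0.037 (biogenesis).

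Signs of single members turned after median centring and scaling to hybridization controls for Atp5f1a (0.018, 0.11), Atp5mf (0.082, 0.17), Cox6b1 (0.071, 0.16), Ndufb4 (0.10, 0.19), Sdha (0.11, 0.20), Uqcrc1 (0.047, 0.14) and Uqcrh (0.13, 0.22), and after the latter alone for Atp5if1 (0.079). They also turned for Ndufa1 with cyclic loess (−0.0078), for Cox7a2l (−0.053) and Sdha (0.084) without control 1, for Cox7b (−0.058) and Uqcrh (0.018) without control 2, for Cox4i1 (−0.0016) without PhIP 1, and for Sdha (0.043) and Uqcrh (0.0039) without PhIP 2. Leaving out arrays gave −0.13 to 0.084 for Sdha, −0.027 to 0.018 for Uqcrh and −0.0016 to 0.12 for Cox4i1. Median centring and scaling to hybridization controls shift every gene's log2 fold change upward by a common amount, so values a little below 0 turn. The cause of the other turns was not tested. With the replicate number as a block, 0 members passed (lowest adjusted p = 0.114). Arrays with the same number share only that number: their deviations correlated at r = −0.056 over 18625 probe sets and at 0.15 over the members. Dim probe sets limit what the tissue isoforms can show.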
